A study of Mus musculus with 4 samples.

Results

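Metallothioneins and the proteins around them hold, sense and move zinc inside cells. Mt1 and Mt2 encode small cysteine-rich proteins that bind zinc and copper, and in mouse liver they are known to be induced by zinc, glucocorticoids and inflammatory cytokines. Mtf1 encodes the zinc-sensing transcription factor that binds metal response elements in front of Mt1, Mt2 and Slc30a1. Slc30 proteins carry zinc or related metals out of the cytosol, and Slc39 proteins carry them into it.

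The group described here consisted of 7 genes, Mt1, Mt2, Mtf1, Slc30a1, Slc30a10, Slc39a4 and Slc39a14. They were chosen by gene name, with earlier results of the same arrays known, in which Mt1 and Mt2 stood among the highest liver ratios. The ratios of these genes are therefore given as a description, with no test. Every probe carrying one of the 7 names in the scanner files was kept, which gave 13 of 41174 probes, for 7 of 27670 genes. Of the 13 probes, 12 were well above background in at least 1 dye on both arrays of each tissue, and these are called measured below. The exception, Mtf1 probe A_52_P55666, was not well above background on any array in either dye.

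Male C57BL/6J mice aged 13 weeks were fed for 4 weeks either the NP diet, a purified diet with 1.2% nucleoprotein added and a nucleic acid content of 0.5%, or the low-NP diet, the same kind of purified diet with 0.03% nucleic acids. Total RNA of liver and of spleen was pooled within each diet, and the NP pool was hybridised against the low-NP pool of the same tissue on 2-colour Agilent whole mouse genome arrays. Each tissue had 2 arrays, the NP pool being labelled with Cy5 on array 1 and with Cy3 on array 2. Because the labels call the arrays a dye swap and do not settle whether each array had pools of its own, each diet and tissue counted as 1 replicate. The number of mice in a pool is not given in the labels, so the spread between the arrays of a tissue may be technical alone. All ratios are log2 of NP over low NP, given as the mean of both arrays ± the distance of either array from that mean. A probe or gene was called higher or lower where both arrays passed 1.5-fold, or 0.585 on the log2 scale, in the same direction.

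The pools carried transcripts of other tissues, and the low-NP pools more of them than the NP pools. For hepatocyte markers, 16 of 16 genes were well above background in the low-NP spleen pool on both arrays, and 16 and 14 of 16 in the NP spleen pool. Their signal in low-NP spleen had a median of 40.4% of that in NP liver (lowest 19.8%, highest 220%), against a median of 0.361% in NP spleen (lowest 0.157%, highest 6.85%). The highest share in low-NP spleen was that of Fabp1, with log2 signals of 17.30 in NP liver and 18.44 in low-NP spleen. The lowest was that of Ttr, with 14.26 and 11.92. As the shares differed this much between genes, they describe signal and are not read as an amount of hepatocyte RNA. B cell markers in low-NP liver had a median of 19.5% of their NP spleen signal, against 4.11% in NP liver. For T cell markers the corresponding medians were 22.4% in low-NP liver and 5.11% in NP liver. Exocrine pancreas markers were called lower in NP for 18 of 18 genes in both tissues, with a median ratio of -0.996 in liver and -2.13 in spleen. In the NP pools too, 18 of 18 pancreas genes were well above background on both arrays of each tissue. Fewer cells of a type and less RNA per cell cannot be told apart in such pooled tissue RNA. Every NP over low-NP ratio below rests on these low-NP pools. Only the comparison of NP liver with NP spleen has no low-NP signal on either side, and its pools hold pancreas transcripts as well. Its levels were still normalized together with the low-NP dye of the same arrays. Spleen array 1 also had raised background, with median negative control signals of 307 in the NP dye and 156 in the low-NP dye, against 62.7 and 71.9 on spleen array 2. There 94.7% of probes in the NP dye and 93.1% in the low-NP dye passed as well above background, so that the filter removed little on that array.

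**Figure D1:**
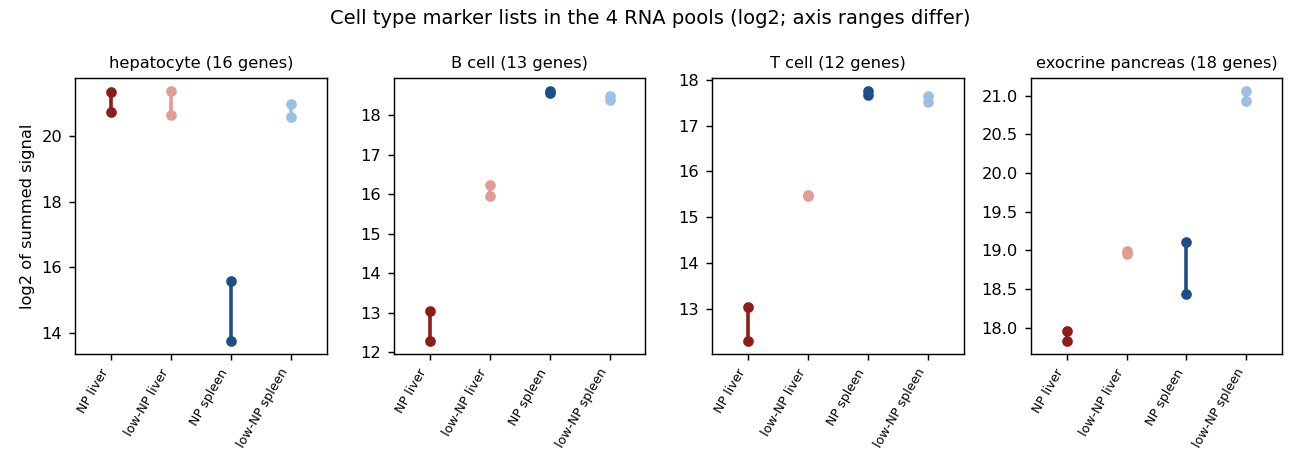
The vertical axis of each panel is the log2 of the normalized signal summed over a marker list, with points for the 2 arrays of each RNA pool. Hepatocyte signal is high in low-NP spleen (20.98 and 20.59) and low in NP spleen (15.60 and 13.75), while B and T cell signals are higher in low-NP liver than in NP liver.

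The bases in front of Mt1, Mt2 and Slc30a1 are shown because these are the textbook targets of MTF1 and their liver ratios differed. The sequences are the 250 bases before the RefSeq start of each gene, 5′ to 3′ on the gene's own strand, in build GRCm38.p6. Capitals mark matches to the core of the metal response element, searched as TGCACNC or TGCGCNC on both strands. Mt1 lies on chromosome 8 at chr8:94178839-94179088, plus strand, Mt2 at chr8:94172368-94172617, plus strand, and Slc30a1 at chr1:191906531-191906780, plus strand.
Mt1: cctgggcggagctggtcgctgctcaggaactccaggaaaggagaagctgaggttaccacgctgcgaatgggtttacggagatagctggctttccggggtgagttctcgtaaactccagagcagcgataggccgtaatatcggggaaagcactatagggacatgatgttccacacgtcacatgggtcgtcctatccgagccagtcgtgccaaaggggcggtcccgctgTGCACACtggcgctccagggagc
Mt2: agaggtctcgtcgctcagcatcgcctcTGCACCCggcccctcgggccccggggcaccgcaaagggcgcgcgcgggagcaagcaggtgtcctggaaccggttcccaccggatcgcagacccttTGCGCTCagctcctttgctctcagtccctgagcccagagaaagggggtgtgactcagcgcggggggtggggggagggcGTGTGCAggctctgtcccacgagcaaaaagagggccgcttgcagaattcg
Slc30a1: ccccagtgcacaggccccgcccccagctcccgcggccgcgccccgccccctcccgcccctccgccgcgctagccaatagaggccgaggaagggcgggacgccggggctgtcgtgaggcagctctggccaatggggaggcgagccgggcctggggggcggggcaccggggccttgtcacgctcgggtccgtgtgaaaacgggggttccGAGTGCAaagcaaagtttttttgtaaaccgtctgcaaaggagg

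Mt2 held 3 matches, at 223, 128 and 50 bases before the start, while Mt1 held 1 match at 23 bases and Slc30a1 held 1 at 43 bases. Slc30a10 also held 3, of which 2 overlap each other on opposite strands, and Mtf1 held 0. Of 32851 RefSeq promoter windows of the same length, 21.4% held at least 1 match and 1.26% held at least 3. When the 50 bases after the start were searched too, Mt1 held 3, Mt2 held 4 and Slc30a1 held 2 matches, and 1.97% of all such windows held at least 3. The count of Mt1 beside that of Mt2 thus depended on where the window ended, and nothing about their ratios is read from it. The antioxidant response element core TGACNNNGC was searched on both strands in the 250 bases before the start alone. It occurred in the Mt2 and Slc30a1 windows, at 79 and 82 bases before the start, and in 10.2% of all windows. Neither the STAT motif TTCNNNGAA nor the E-box CACGTG matched within the 250 bases of the 5 genes of the group that the RefSeq table holds. A match is a description of these letters and says nothing of binding in these mice.

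Mt2 and Mt1 were the members with the highest ratios in liver. Mt2, read by probe A_51_P246317 on chromosome 8 (92762515 to 92762574 in build mm7, as the scanner files give it), had ratios of 1.89 and 1.55 on the liver arrays. Its mean of 1.72 ± 0.17 was 3.29-fold, and it was called higher in NP. Mt1, read by probe A_51_P294979 on chromosome 8 (92769155 to 92769214, mm7), had ratios of 1.5 and 1.39. The mean of 1.44 ± 0.05 was 2.72-fold, and it was called higher too. Among 25188 measured probes these were ranks 6 and 7 from the highest mean ratio. In liver 13 probes in all were called higher, which is 0.0516%, and 2.91% were called lower, so the 2 calls of the group stand beside a background in which nearly all calls ran the other way. As the genes were chosen with these ratios known, nothing is read from that share.

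The Mt1 probe was spotted 10 times on every array, which gives the precision of a single hybridisation. On liver array 1 the 10 spots ran from 1.47 to 1.52, with an SD of 0.022, and on liver array 2 from 1.36 to 1.44, with an SD of 0.0269. On the spleen arrays they ran from -0.18 to -0.12 on array 1 and from -0.51 to -0.47 on array 2. The spots of one array did not overlap with those of another, so the arrays of a tissue differed by more than the spread between spots. The direction was shared by all 10 spots on both arrays of each tissue.

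**Figure D2:**
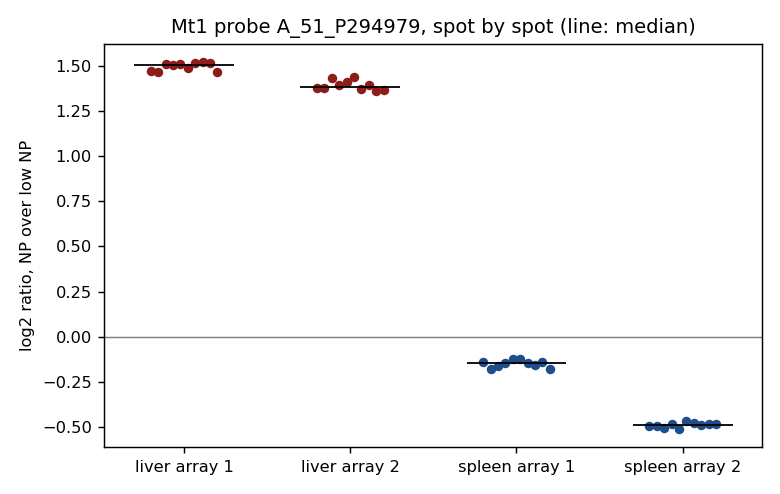
The vertical axis is the log2 ratio of NP over low NP for each of the 10 spots of Mt1 probe A_51_P294979, by array, with a line at the median. All liver spots lie between 1.36 and 1.52, and all spleen spots lie below 0.

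A second Mt1 probe, A_52_P423810, lies nearby on chromosome 8 (92768988 to 92769047, mm7) and was dimmer. Its liver ratios were 0.39 and 1.33, a mean of 0.86 ± 0.47, and it was not called because array 1 stayed under 1.5-fold. Across the alternative ways of processing, its liver mean ran from 0.39 to 2.56, and it was called higher without background correction (1.36 and 1.45) and with the scanner software's ratio (2.64 and 2.48). The mean of the brighter Mt1 probe ran from 1.39 to 1.65 and that of Mt2 from 1.55 to 1.91, and both stayed called. Both Mt1 probes were above 0 on both liver arrays, and they disagreed in size and in the call.

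The sensor and the transporters had smaller liver ratios, and none of their probes was called. Slc30a1, which encodes the zinc exporter of the cell surface, had ratios of 0.22 and 0.26 by probe A_51_P300572 (chromosome 1, 191465806 to 191465865, mm7) and of 0.39 and 0.35 by A_51_P250378 (191462639 to 191462698). Slc30a10, known in mouse and human as a manganese exporter, had 0.35 and 0.36 by A_51_P173445 (chromosome 1, 184990352 to 184990411, mm7) and 0.22 and 0.35 by A_52_P883557 (184993807 to 184993866). Slc39a4, which encodes the importer needed for zinc uptake in the gut, had 0.39 on both arrays (A_51_P103222, chromosome 15, 76694988 to 76695047, mm7). These 5 probes gave nearly the same value on both arrays, with a distance from the mean of 0.07 or less, and all stayed under the threshold.

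Slc39a14 encodes an importer of zinc, iron and manganese that is abundant in hepatocytes and induced there by interleukin-6 in mice. Its liver ratios were 0.53 and 0.27 by probe A_51_P282983 (chromosome 14, 64948082 to 64948141, mm7) and 0.17 and 0.27 by A_51_P324110 (64950977 to 64951036). The value of 0.53 was the one closest to the threshold from below among the transporter probes in liver. Mtf1 had 0.25 and 0.06 by probe A_52_P467266 (chromosome 4, 124293768 to 124293827, mm7) and 0.12 and 0.17 by A_52_P236072 (124249624 to 124249683). The liver means of these Mtf1 probes, 0.16 and 0.15, were the lowest among the 12 measured probes. All 12 measured probes were above 0 on both liver arrays, as were 29.9% of all measured probes.

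In spleen the metallothioneins ran slightly the other way and were not called. Mt1 had ratios of -0.15 and -0.49 by its brighter probe, a mean of -0.32 ± 0.17, and -0.08 and -0.38 by its dimmer probe. Mt2 had -0.19 and -0.49, a mean of -0.34 ± 0.15. For both genes array 2 was further from 0 than array 1, the array with raised background. None of these values reached 1.5-fold. With median centring in place of loess the means were -0.55 for the brighter Mt1 probe and -0.60 for Mt2, and with the scanner software's ratio they were -0.18 and -0.20.

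The importers Slc39a14 and Slc39a4 were called lower in NP spleen, as were 5.16% of 27695 measured probes, with 0.0469% called higher. Slc39a14 had ratios of -0.95 and -1.41 by probe A_51_P282983, a mean of -1.18 ± 0.23 or 0.441-fold. Its other probe, A_51_P324110, had -0.53 and -0.75 and lay just outside the threshold on array 1. Slc39a4 had -0.76 and -0.69, a mean of -0.72 ± 0.03 or 0.605-fold, and lay just inside it. With the scanner software's ratio Slc39a4 was not called (-0.64 and -0.54), while both Slc39a14 probes were, the other one at -0.97 and -1.58. Without array 1, 5 member probes passed 1.5-fold in spleen, and at a threshold of 2-fold on both arrays 0 passed.

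Slc30a10 had spleen ratios of -0.49 and -1.43 by probe A_51_P173445 and of -0.33 and -0.96 by A_52_P883557. Both probes passed 1.5-fold on array 2 alone, and in the NP spleen pool each was well above background on 1 of 2 arrays. Their means moved widely with the processing, the first between -0.49 and -2.59 and the other between -0.33 and -1.98. Slc30a1 had -0.21 and -0.14 by one probe and -0.29 and -0.35 by the other. Mtf1 was close to 0, with 0.05 and 0.01 by A_52_P467266 and -0.11 and -0.07 by A_52_P236072, and each of its probes changed sign under at least 1 alternative scaling. In all, 11 of 12 measured probes were below 0 on both spleen arrays, against 36.4% of all measured probes. The same 11 were above 0 on both liver arrays and below 0 on both spleen arrays, a pattern found in 18.5% of the 24402 probes measured in both tissues.

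**Figure D3:**
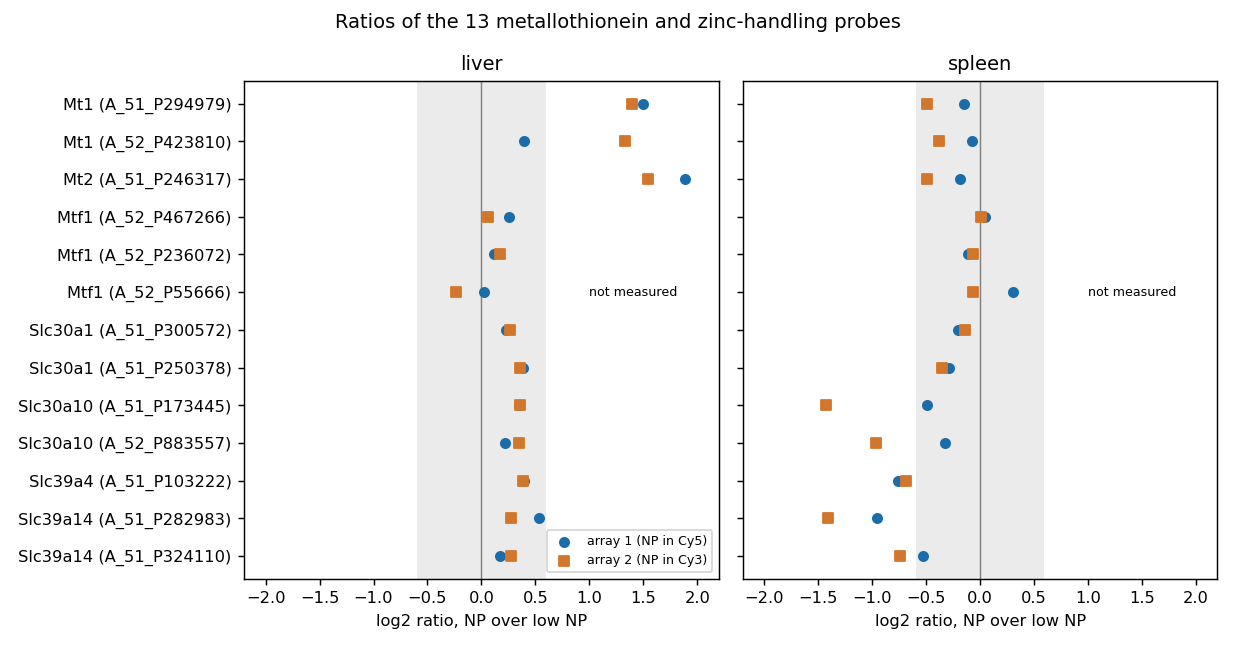
The horizontal axis is the log2 ratio of NP over low NP, with one point per array for each of the 13 probes and the grey band marking changes under 1.5-fold. In liver the Mt2 probe and the brighter Mt1 probe lie beyond the band on both arrays, and in spleen the Slc39a4 probe and one Slc39a14 probe do, on the other side of 0.

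The spleen calls stand beside the hepatocyte transcripts of the low-NP spleen pool. The hepatocyte list had 16 of 16 genes called lower in spleen, with a median of -6.98, led by Akr1c6 (-8.75 ± 0.71), Fabp1 (-8.41 ± 0.86) and Ambp (-7.80 ± 0.98). The Slc39a14 signal by probe A_51_P282983 was 8.29% of its NP liver signal in NP spleen and 18.8% in low-NP spleen. For Slc39a4 these shares were 16.9% in NP spleen and 27.9% in low-NP spleen. Mt1 by its brighter probe had 41.5% in NP spleen and 51.8% in low-NP spleen, and Mt2 had 54.0% and 68.3%. These shares depend on the scaling: with the scanner software's signals NP liver stood further above NP spleen, by 4.2 in place of 3.59 on the log2 scale for Slc39a14, 3.27 in place of 2.57 for Slc39a4 and 1.52 in place of 0.89 for Mt2. The part of the hepatocyte transcripts in these spleen ratios was not tested.

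In liver the same list stood elsewhere. Its 16 genes had a median ratio of 0.07, with array medians of 0.59 and -0.34, and 0 were called in either direction. The median was 0.45 with median centring in place of loess. The 3 with the largest mean ratios were Hpx (0.40 ± 0.46), Ttr (0.37 ± 0.26) and Otc (0.27 ± 0.28). B cell markers were called lower for 11 of 13 genes in liver, with a median of -2.10, led by Ms4a1 (-4.66 ± 0.70), Cd79b (-4.62 ± 0.43) and Pou2af1 (-4.27 ± 0.65). T cell markers were called lower for 8 of 12, with a median of -2.06, led by Cd8b1 (-3.54 ± 0.74), Ltb (-3.52 ± 0.29) and Cd3d (-2.56 ± 0.65). With the scanner software's ratio the liver medians were -3.86 for the B cell and -3.34 for the T cell list. Mt1 by its brighter probe and Mt2 had signals in low-NP liver of 36.8% and 30.4% of those in NP liver, and of 88.5% and 56.4% of those in NP spleen. The part of the lymphoid transcripts of low-NP liver in the liver ratios was not tested.

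The remaining marker lists are given for both tissues. In spleen 0 of 13 B cell genes were called and their median was 0.17, with Cd22 at 0.26 ± 0.23 and Pax5 at 0.24 ± 0.06, and 0 of 12 T cell genes were called around a median of 0.08, with Ltb (0.18 ± 0.08), Lck (0.11 ± 0.15) and Cd5 (0.10 ± 0.09). The macrophage list was called lower for 4 of 14 genes in liver, led by Vcam1 (-2.32 ± 0.20), Spic (-2.08 ± 0.35) and Marco (-1.32 ± 0.26), and for 2 of 14 in spleen, the Kupffer cell genes Clec4f (-2.85 ± 1.51) and Vsig4 (-1.47 ± 0.88), with Spic at 0.26 ± 0.20. The spleen medians of the B cell, T cell and macrophage lists (0.17, 0.08 and 0.12) were below 0 when loess was replaced by median centring (-0.08, -0.16 and -0.15). Erythroid genes were called lower for 1 of 8 in liver, Slc4a1 (-1.30 ± 0.61), with Eraf at -0.80 ± 0.57 and Alas2 at -0.31 ± 0.26. In spleen 3 of 12 were called higher, Hemgn (0.74 ± 0.05), Rhd (0.69 ± 0.00) and Ank1 (0.67 ± 0.04), the last named after its value was seen. Eraf, with 0.82 and 0.56 in spleen, was not called. For exocrine pancreas the largest were Reg2 (-2.42 ± 0.55), Prss2 (-1.26 ± 0.07) and Amy2 (-1.24 ± 0.01) in liver and Amy2 (-2.54 ± 0.86), Cpb1 (-2.50 ± 0.43) and Cela3b (-2.47 ± 0.37) in spleen.

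The signal of each probe was also set side by side across the 4 RNA pools, on a log2 scale after normalization between arrays. Mt1 by its brighter probe stood at 12.53 and 12.46 in NP liver, 11.03 and 11.07 in low-NP liver, 11.23 and 11.22 in NP spleen and 11.38 and 11.71 in low-NP spleen. The pools therefore ran from NP liver through low-NP spleen and NP spleen to low-NP liver, with no overlap between neighbours. Such separation of neighbours, whatever the order of the pools, was found for 14.9% of the probes measured in both tissues. Mt2 had the order of Mt1, with 13.43 and 13.35 in NP liver, 11.55 and 11.81 in low-NP liver, 12.47 and 12.53 in NP spleen and 12.66 and 13.02 in low-NP spleen. In these low-NP pools, liver minus spleen was -0.50 for Mt1 and -1.17 for Mt2, whereas in the NP pools it was 1.27 for Mt1 and 0.89 for Mt2. With the scanner software's processed signals, scaled to the 75th percentile, the low-NP difference was -0.10 for Mt1 and -0.54 for Mt2, and the NP difference was 1.70 for Mt1 and 1.52 for Mt2.

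The transporters kept a plain order of liver over spleen on both diets. Slc39a4 stood at 13.74 and 13.81 in NP liver, 13.35 and 13.42 in low-NP liver, 11.08 and 11.34 in NP spleen and 11.84 and 12.03 in low-NP spleen. Slc39a14 by probe A_51_P282983 stood at 11.70 and 11.68 in NP liver, 11.16 and 11.41 in low-NP liver, 7.97 and 8.23 in NP spleen and 8.93 and 9.64 in low-NP spleen. Neighbouring pools did not overlap for 8 of the 12 measured probes, against 14.9% of all probes measured in both tissues. They overlapped for the dimmer Mt1 probe, for both Mtf1 probes and for Slc39a14 probe A_51_P324110, whose values were 7.08 and 7.68 in NP spleen and 7.61 and 8.43 in low-NP spleen. NP liver exceeded NP spleen by 3.59 for Slc39a14 by probe A_51_P282983 and by 2.54 by A_51_P324110. The difference was 3.21 and 2.93 for Slc30a10, 2.57 for Slc39a4 and 1.05 and 1.77 for Slc30a1. With the scanner software's signals these differences were 4.2 and 4.18 for Slc39a14, 5.69 and 5.32 for Slc30a10, 3.27 for Slc39a4 and 1.38 and 2.07 for Slc30a1. The sizes for Slc30a10 are thus uncertain, since each of its probes was well above background on 1 of 2 NP spleen arrays.

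For Mtf1 the difference between tissues depended on the probe. NP liver minus NP spleen was 0.13 by probe A_52_P467266, whose values ran from 9.83 to 10.13 over all pools and arrays, and 0.82 by A_52_P236072. In the low-NP pools liver minus spleen was 0.59 by A_52_P236072. The dimmer Mt1 probe followed the order of the transporters, and its low-NP liver and low-NP spleen values overlapped, with a difference of 0.36 that was -0.81 with the scanner software's signals. The comparison of NP liver with NP spleen is the one with no low-NP signal on either side. Its levels were still normalized together with the low-NP dye of the same arrays. In this comparison 12 of 12 measured probes stood higher in liver, as did 53.7% of all probes measured in both tissues. With the scanner software's signals it was again 12 of 12, beside 44.7% of all.

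**Figure D4:**
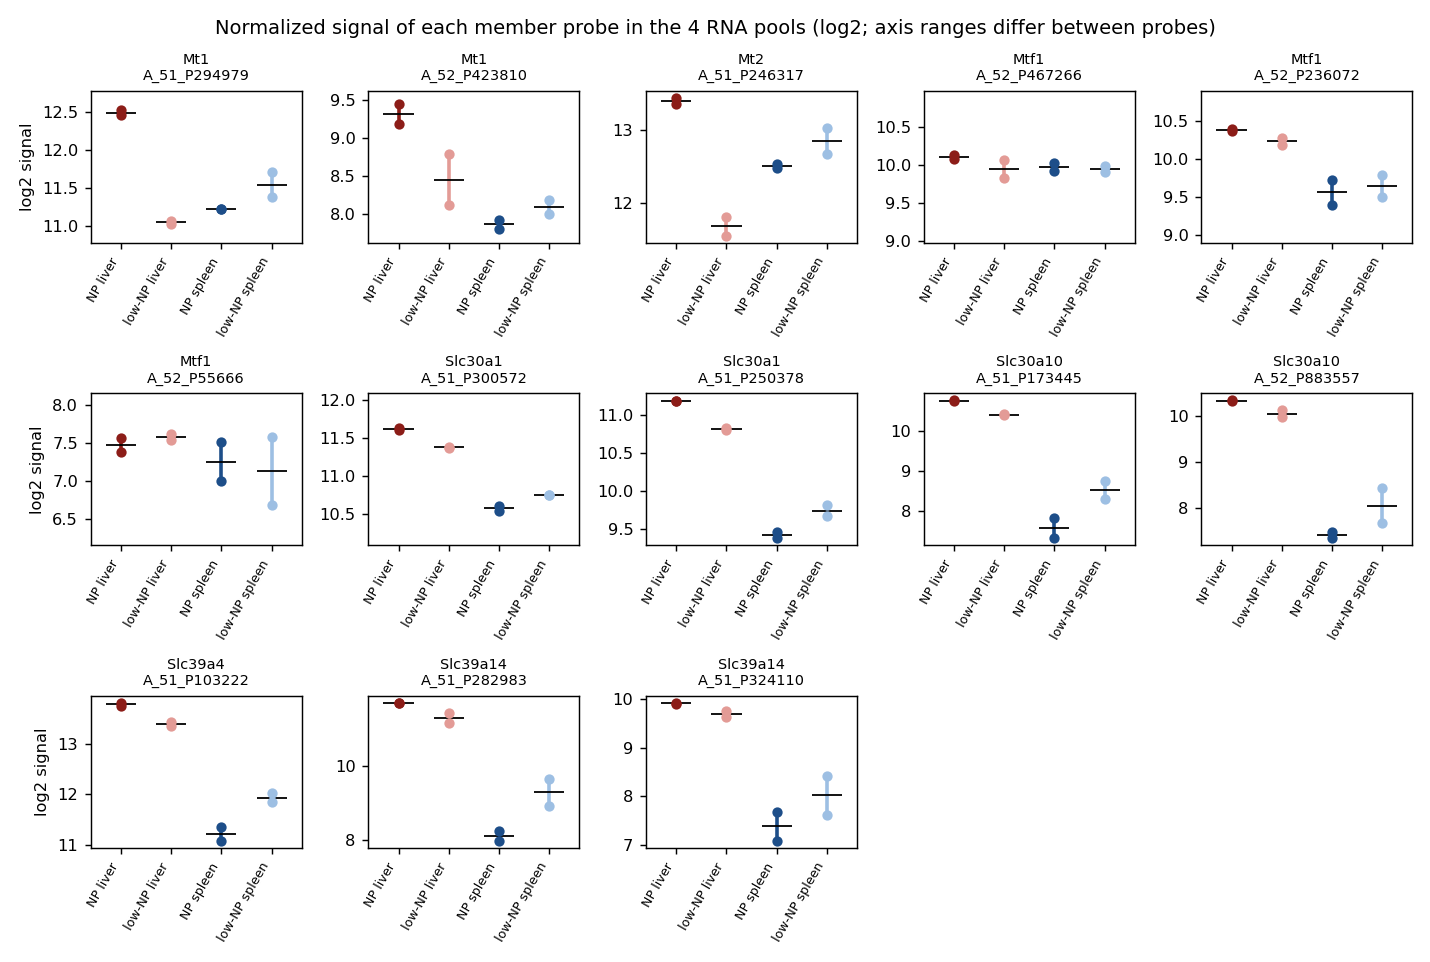
Each panel gives the normalized log2 signal of a probe, with points for the 2 arrays of each RNA pool and a line at their mean. Mt1 (A_51_P294979) and Mt2 have their lowest signal in low-NP liver, while the Slc30a1, Slc30a10, Slc39a4 and Slc39a14 probes are higher in both liver pools than in both spleen pools.

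The wider families were read with 1 probe per gene, the brightest over all arrays. Per gene, the share called was 0.0706% higher and 3.65% lower of 16997 measured in liver, and 0.0434% higher and 6.34% lower of 18415 in spleen, with a median ratio of 0.00 in liver and -0.02 in spleen. Of 4 metallothionein genes measured, 2 were called higher in liver, Mt1 and Mt2, and 0 in spleen. Mt3, the metallothionein typical of brain, had 0.06 ± 0.12 in liver and -0.04 ± 0.29 in spleen, and Mt4, typical of stratified epithelium, had -0.06 ± 0.09 and -0.16 ± 0.14. These last genes are named as the rest of the list, after their values were seen.

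Of 10 zinc exporter genes of the Slc30 family on the array, 7 were measured in liver and 8 in spleen, and 0 were called in either tissue. Their median was 0.13 in liver and -0.09 in spleen, and the spleen median was 0.04 with the scanner software's ratio. Outside the group, Slc30a7 was among the highest in liver (0.16 ± 0.23) and Slc30a6 among the lowest in spleen (-0.42 ± 0.04), both encoding exporters of the Golgi. Of 14 zinc importer genes of the Slc39 family, 13 were measured in each tissue. In liver 0 were called and the median was 0.06, and in spleen 2 were called lower, Slc39a4 and Slc39a14, and the median was -0.11.

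Slc39a8, the importer closest to Slc39a14 in sequence and function, had ratios of 0.55 and 0.13 in liver and of -0.37 and -0.64 in spleen. With means of 0.34 ± 0.21 and -0.51 ± 0.14 it was the highest in liver and the lowest in spleen of the family members outside the group, and it was not called. Slc39a6 (-0.49 ± 0.35) and Slc39a10 (-0.26 ± 0.20), importers of the cell surface, were the lowest in liver. In spleen the highest were Slc39a3 (0.13 ± 0.10) and Slc39a6 (0.07 ± 0.01).

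**Figure D5:**
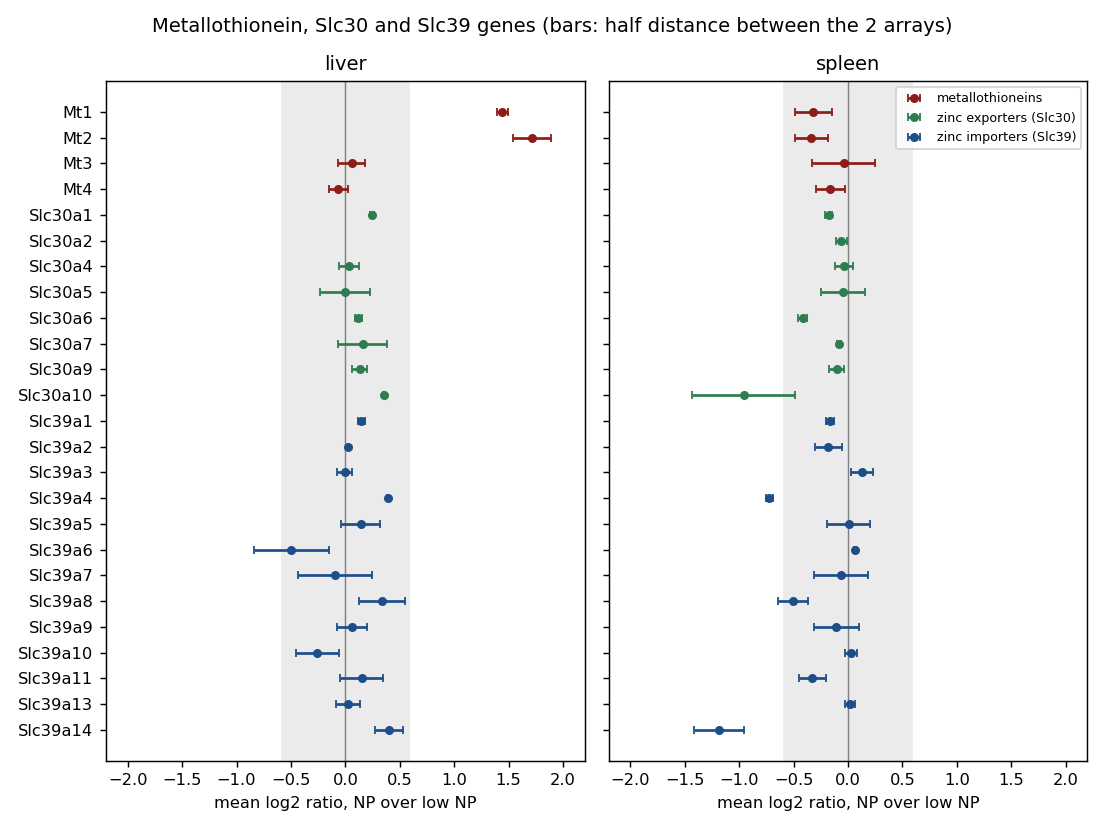
The horizontal axis is the mean log2 ratio of NP over low NP for each measured metallothionein, Slc30 and Slc39 gene, with bars reaching to the value of each of the 2 arrays and the grey band marking changes under 1.5-fold. In liver Mt1 and Mt2 lie beyond the band and the means of the other genes within it, and Slc39a14, Slc30a10 and Slc39a4 lie furthest below 0 in spleen, where Slc30a10 is not called.

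Gene lists for known inducers and for copper were read beside the metallothioneins. Acute phase genes were called higher in liver for 5 of 25 measured, with a list median of 0.31. The largest were the serum amyloid genes Saa1 (2.67 ± 0.22), Saa2 (2.65 ± 0.38) and Saa3 (2.65 ± 0.22) and the orosomucoid gene Orm3 (2.59 ± 0.47). In spleen 20 of 26 acute phase genes were called lower, with a median of -2.22, led by the liver-secreted fibrinogen chains Fgg (-7.98 ± 0.38), Fgb (-6.17 ± 0.78) and Fga (-4.89 ± 0.66) and by Hpx (-6.41 ± 0.35). Hpx is also in the hepatocyte list.

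The glucocorticoid response list had 1 of 15 genes called in liver, Ddit4, which was lower (-0.85 ± 0.14), and a median of -0.09, which was 0.01 under median centring. In spleen 5 of 15 were called lower, led by the liver enzymes Pck1 (-6.17 ± 0.12) and Tat (-4.50 ± 0.61), by Igfbp1 (-3.92 ± 1.10) and by Angptl4 (-0.86 ± 0.15), and the median was -0.08, which was 0.07 with the scanner software's ratio. The Nrf2 response list had 1 of 16 called in liver, the heme oxygenase gene Hmox1, which was lower (-1.58 ± 0.09), with a median of 0.07. In spleen 6 of 16 were called lower, led by the glutathione transferase genes Gstm1 (-3.01 ± 0.10), Gstm3 (-2.68 ± 0.21), Gsta1 (-2.50 ± 1.17) and Gsta2 (-1.66 ± 0.54), with a median of -0.35. On the log2 signal scale Hmox1 stood at 15.47 in NP spleen, 11.37 in NP liver and 12.945 in low-NP liver. Ddit4 stood at 15.56 in NP spleen, 12.59 in NP liver and 13.44 in low-NP liver. The part of spleen transcripts in the liver calls of Hmox1 and Ddit4 was not tested. The copper list had 0 of 10 called in liver, with a median of 0.00. In spleen 3 of 10 were called lower, the ceruloplasmin gene Cp (-1.93 ± 0.01), the superoxide dismutase copper chaperone Ccs (-1.30 ± 0.06) and the copper importer Slc31a1 (-1.23 ± 0.08), with a median of -0.14.

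Genes with the most similar pattern were sought by the Euclidean distance between log2 ratios over the 4 arrays, among 16501 genes measured in both tissues. By the brightest probe of each gene, Mt2 was the nearest gene to Mt1 and Mt1 the nearest to Mt2, at a distance of 0.42. The next for both were Dnajc12, which encodes a co-chaperone, at 0.72 from Mt1 and 1.04 from Mt2, LOC638251, a name not in the RefSeq table used, at 0.91 and 1.20, Mid1ip1 at 1.10 and 1.45, and Cyp26a1, the retinoic acid hydroxylase of liver, at 1.12 and 1.51. Dnajc12 had ratios of 1.13 and 0.97 on the liver arrays and of -0.57 and -0.69 on the spleen arrays. Mid1ip1 had 0.84 and 0.60 in liver and -0.48 and -0.29 in spleen. Whether the arrays of a tissue share their RNA pools is not settled by the labels, and the distances describe these 4 arrays. The dimmer Mt1 probe, with 0.39 and 1.33 in liver and -0.08 and -0.38 in spleen, did not enter the distances. Mt1 and Mt2 were chosen with their liver ratios known, so nothing is read from their nearness.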

How the data were processed

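The deposited scanner files give, per the file headers, the intensity of every spot in 2 dyes (mean foreground, with a median local background), flags for spots above background, saturated or outlying, and the software's log10 ratio of Cy5 over Cy3 (Agilent Feature Extraction 9.5.3.1, per the submitters' processing notes). The deposited value table is on a log10 scale, and how it was made is not given in the sources used; against the scanner ratios its columns correlated at -0.992, 0.991, -0.993 and 0.998, so every column runs low NP over NP.

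Each array had 45018 spots, of which 1639 were controls and 109 to 180 were outliers and left out. In limma 3.58.1 (R 4.3.3), mean signals were corrected by normexp with an offset of 50 and ratios normalized by loess, with control and outlier spots at weight 0. Ratios from both dye orientations were expressed as NP over low NP, and spots of a probe averaged. Signals per pool were taken after loess and Aquantile, and are open to what dye bias the swap leaves. No member spot was saturated. Of 41174 probes, 22951 were named by RefSeq accession, 6659 by symbol and 3109 by synonym, and 8455 kept the file's name. Promoter sequences are from RefSeq, GRCm38.p6, which held 5 of the 7 genes, and coordinates in mm7 are those of the scanner files.

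With 1 replicate per diet and tissue no test was run; the number of arrays limits the precision. The members and gene lists were chosen with earlier results of these data known. Named were all members with every probe; of the other metallothionein, Slc30 and Slc39 genes the called ones and, per tissue, the 2 highest and 2 lowest; of the copper, acute phase, glucocorticoid and Nrf2 lists up to 4 called genes with the largest change; of marker lists up to 3, of which 1 gene is not reported here; and the 5 genes nearest Mt1 and Mt2. Tables and figures were made with pandas 2.3.3, matplotlib 3.10.9 and numpy 2.4.6 under Python 3.11.15; the calling was tested on simulated data. Alternatives were no background correction, an offset of 16, median centring, the scanner software's ratio, the value table, single arrays, other filters and a 2-fold threshold.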

Additional observations from a re-analysis of the deposited data

Results flagged for a closer look

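Of the 12 measured probes, 11 were above 0 on both liver arrays and below 0 on both spleen arrays, as were 18.5% of the 24402 probes measured in both tissues. The genes were chosen with earlier results of these arrays known, so nothing is read from that count. The difference between the tissues was not tested, since each diet and tissue had 1 replicate. The mean log2 ratios of NP over low NP were 1.44 in liver and -0.32 in spleen for Mt1 by its brighter probe, 0.86 and -0.23 by its dimmer probe, and 1.72 and -0.34 for Mt2. For Slc30a1 they were 0.24 in liver and -0.18 in spleen by one probe and 0.37 and -0.32 by the other. Slc30a10 had 0.35 in liver and -0.96 in spleen by one probe and 0.28 and -0.65 by the other. The importers had 0.39 in liver and -0.72 in spleen for Slc39a4, and 0.40 and -1.18 or, by the other probe, 0.22 and -0.64 for Slc39a14. Mtf1 by probe A_52_P236072 had 0.15 in liver and -0.09 in spleen, and the spleen value was 0.03 with the scanner software's ratio. Of these, the liver values of Mt2 and of the brighter Mt1 probe and the spleen values of Slc39a4 and of one Slc39a14 probe passed 1.5-fold on both arrays. Markers of the other tissue moved in the low-NP pools as well, and their part in this pattern was not tested.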

How the results depend on the processing

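Over the alternatives, the Mt2 probe and the brighter Mt1 probe were called higher in liver throughout, joined by the dimmer Mt1 probe without background correction, with the scanner software's ratio, with the value table and on array 2 alone. No alternative called a member probe lower in liver or higher in spleen. In spleen 2 were called lower, against 3 with median centring or an offset of 16, 0 at 2-fold and 2 to 5 on single arrays, and Slc39a4 lost its call with the scanner software's ratio and with the value table. Of 168 alternative values of member ratios, 114 lay within the spread between arrays, 54 moved beyond it, and 3, all of Mtf1 in spleen, had the other sign. The 168 include the single-array values, which lie within that spread by construction. All 54 that moved therefore came from the other alternatives, and the 114 overstate how many stayed. Of 130 list medians 45 moved, and of 26 differences in level 20 moved, for causes not tested. The counts over all genes depended more on the processing. Genes called higher in liver numbered 12, against 302 with the scanner software's ratio, 311 with the deposited value table, 6 at 2-fold and 76 to 344 on single arrays. Genes called lower in liver numbered 620, against 1327 without background correction, 1740 with the scanner software's ratio, 324 with median centring, 1747 with the value table, 296 at 2-fold and 700 to 1912 on single arrays. Genes called higher in spleen numbered 8, against 48 with the scanner software's ratio, 3 with median centring, 48 with the value table, 1 at 2-fold and 49 to 131 on single arrays. Genes called lower in spleen numbered 1167, against 771 at 2-fold. The 2-fold and single-array counts differ because the rule itself is stricter or needs 1 array only, and for the other counts the cause was not tested. The scanner software's ratio moved the median of all genes to 0.11 in liver and 0.10 in spleen, and median centring to 0.06 and -0.15, against 0.00 and -0.02 here. The value table for gene counts and the processing alternatives for list medians were added after seeing the data. No paired analysis was possible because no test was run with 1 replicate per diet and tissue. Dim probes limit what can be read for the second Mt1 probe, and in spleen for Slc30a10 and for Slc39a14 probe A_51_P324110. The spleen mean of this Slc39a14 probe ran from -0.53 to -1.27 over the alternatives.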
